A study of Rattus norvegicus with 6 samples.

Results

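The genes of prothrombin, the clotting factors around it and the receptors that respond to thrombin were followed in cells of newborn rat long bone. The group holds 10 genes, named by symbol: F2, F7, F10, F3, F5, F13a1, F2r, F2rl1, F2rl2 and Thbd. Each has 1 row with 1 gene symbol, so all 10 were measured among the 14506 genes that such rows cover, and no filter on low values was applied. The cells came from Sprague Dawley rats of 2 to 5 days of age, with no further genotype or agent given, and were left to adhere to plates coated with mouse prothrombin (PT) or with osteopontin (OPN) from bovine milk. Their RNA was hybridised to 6 Affymetrix Rat Gene 1.0 ST arrays, 3 for PT (replicates 1, 2 and 4) and 3 for OPN (replicates 2, 3 and 4). The study set these adherent populations against each other, and both are mixtures chosen only by adhesion. The labels do not say whether animals were pooled or arrays came from separate preparations, so p-values measure the spread between these arrays, which may be technical.

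Prothrombin, encoded by F2, is made mainly by the liver and circulates as an inactive precursor. Tissue factor with factor VII activates factor X, which together with factor V cleaves prothrombin to thrombin. Thrombin clots fibrinogen and activates the fibrin cross-linking enzyme factor XIII. It also acts on cells by cutting protease-activated receptors, whose new end then serves as their own ligand, and osteoblasts are among the cells known to carry such receptors.

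Of the 10 genes, 5 rose on OPN: the cross-linking factor gene F13a1, the cofactor gene F5, the thrombin receptor genes F2r and F2rl2, and the thrombomodulin gene Thbd. In limma's test 0 of the group fell, with 1 lower at an unadjusted p below 0.05 (F2rl1), and F2 itself was dim on both coatings. The rises ran from 1.39-fold for F2r to 1.81-fold for F13a1, on the scale of log2(signal + 16), which understates the change of dim genes. At an adjusted p below 0.05, 5.05% of all 29215 rows were called higher on OPN and 0.77% lower, and 7.62% and 1.12% of the 14506 named genes. The median log2 difference, OPN minus PT, was 0.42 over the 10 genes and 0.04 over the 14506. With the array medians made equal or with quantile normalisation, 5 of the 10 were called higher and 1, F2rl1, lower. Of all 29215 rows, 1193 were called higher and 551 lower with equal medians, and 1360 and 745 with quantile normalisation. Over all rows these scalings moved the share of calls that were higher from 86.8% to 68.4% and 64.6%. The arrays of the coatings did not overlap for 7 of the 10 genes, 6 of them higher and 1 lower on OPN, against 16.3% and 7.4% of all rows.

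**Figure D1:**
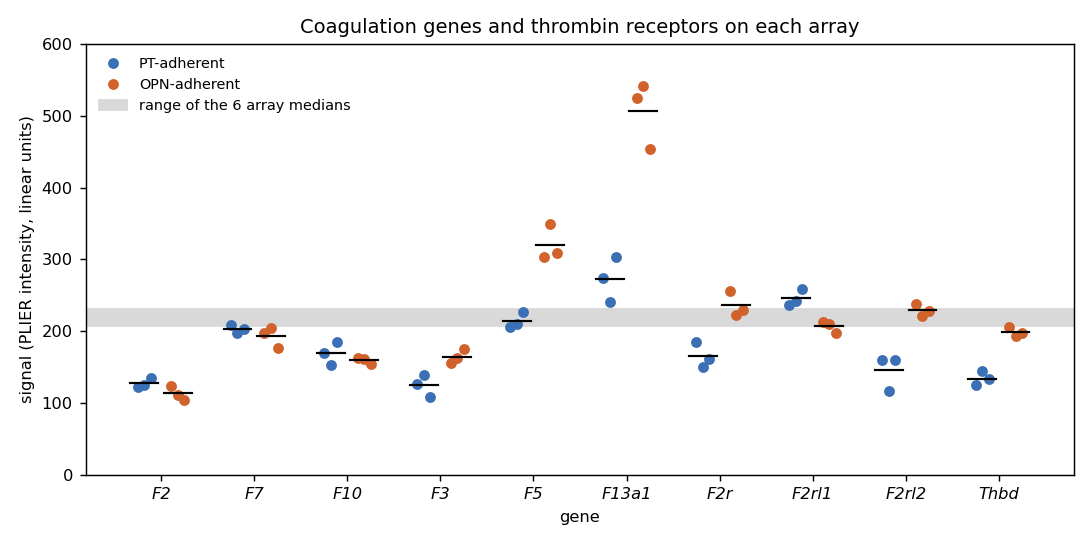
Signal (PLIER intensity, linear units) of each gene on each array, with PT-adherent cells in blue, OPN-adherent cells in orange, a black line at each group's mean and a grey band over the range of the 6 array medians, 207.8 to 231.4. F13a1 lies above the band on all 6 arrays, and F2, F10, F3 and Thbd lie below it.

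The level of most of these genes was modest. The median signal of all rows lay between 207.8 and 231.4 on the 6 arrays. F13a1 was the 1 gene of the group above that median on all 6 arrays. F5 exceeded it on the 3 OPN arrays and on PT replicates 2 and 4. F2r and F2rl2 each exceeded it on OPN replicates 2 and 4 only, and F2rl1 on the 3 PT arrays only. F2, F7, F10, F3 and Thbd stayed below it on every array. Probe sets differ in brightness, so a place within an array describes the probe set and does not order the genes by transcript number. Which of the dim rows lay above background is not known. In RNA of a mixture, more cells of a type and more RNA per cell cannot be told apart.

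F2, the prothrombin gene, had a signal of 123, 125 and 134 on PT replicates 1, 2 and 4 and of 124, 112 and 105 on OPN replicates 2, 3 and 4. OPN replicate 2 fell among the PT values, so the groups overlapped. F2 stood at or above only 17.4% to 26.3% of rows, and its log2 difference of -0.15 did not pass (95% confidence interval -0.33 to 0.03, adjusted p = 0.397). The protein that caught the PT-adherent cells was supplied with the plate, and the arrays measure only the cells' own F2 transcript.

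F7 and F10 encode the factor VII that binds tissue factor and the factor X that cleaves prothrombin, and in the GRCr8 gene table they are direct neighbours on chromosome 16. F7 read 208, 198 and 202 on PT replicates 1, 2 and 4 and 198, 205 and 177 on OPN replicates 2, 3 and 4. F10 read 170.2, 153 and 185 on PT and 163, 161 and 154 on OPN in the same order. The coatings overlapped in both genes. The difference of F7 was -0.06 (95% confidence interval -0.24 to 0.11) and that of F10 -0.07 (-0.26 to 0.11) on the log2 scale, with adjusted p = 0.751 and 0.727. A change in signal of F7, F10 or F2 upward by the size seen for F2r, 0.48, lies outside all 3 intervals. The intervals cover only the spread between arrays. How much of these signals is background is not known, so a change of transcript of that size is not excluded.

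F3 encodes tissue factor, the membrane protein that starts clotting and that stromal and other cells around vessels carry. Its signal was 127, 139 and 108 on PT replicates 1, 2 and 4 and 156, 162 and 175 on OPN replicates 2, 3 and 4. Every OPN array lay above every PT array. The log2 difference of 0.36 (SE 0.10) nevertheless missed the threshold over all rows (adjusted p = 0.0691), and it passed without PT replicate 2 (0.44, adjusted p = 0.0484).

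F5 encodes factor V, the cofactor of factor Xa, which megakaryocytes and platelets hold besides the liver. F5 had 205, 209 and 227 units on PT replicates 1, 2 and 4 and 303, 349 and 309 on OPN replicates 2, 3 and 4. The groups were well apart, at 214 ± 11.7 on PT and 320.2 ± 24.99 on OPN (SD, n = 3). This is a 1.46-fold difference (log2 0.55, SE 0.08, adjusted p = 0.00426), and the gene stood at or above 45.8% to 52.7% of rows on PT and 63.2% to 69.0% on OPN. F13a1 encodes the catalytic chain of factor XIII, which platelets, macrophages and bone-forming cells are known to make. It read 274, 241 and 303 on PT replicates 1, 2 and 4 and 525, 542 and 453 on OPN replicates 2, 3 and 4. The gap between the lowest OPN and the highest PT array was wider than the range within either coating. F13a1 was 1.81-fold higher on OPN, with 506 ± 46.9 against 273 ± 30.8 units (SD, n = 3), a log2 difference of 0.86 (SE 0.10, adjusted p = 0.00136). Its call held in all 14 alternative settings.

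The promoters of 4 of the 5 genes that rose are in the RefSeq table used here (GRCr8, 250 bases before the gene start to 50 after it) and are printed because these genes moved together. Capitals mark matches, on either strand, to 4 short motifs chosen after the sequences had been read: TGANTCA of AP-1, GAGGAAGT of PU.1, TGTGGT of RUNX and AGATAAG of GATA factors. The pair below belongs to F5 (chr13:79046407-79046706, plus strand) and F13a1 (chr17:28020947-28021246, plus strand).
F5: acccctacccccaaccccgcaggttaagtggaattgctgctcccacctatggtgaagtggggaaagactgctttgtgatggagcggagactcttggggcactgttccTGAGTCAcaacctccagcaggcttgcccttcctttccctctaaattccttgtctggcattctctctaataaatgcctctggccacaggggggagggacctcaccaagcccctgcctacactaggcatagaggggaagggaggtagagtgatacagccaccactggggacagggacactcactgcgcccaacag
F13a1: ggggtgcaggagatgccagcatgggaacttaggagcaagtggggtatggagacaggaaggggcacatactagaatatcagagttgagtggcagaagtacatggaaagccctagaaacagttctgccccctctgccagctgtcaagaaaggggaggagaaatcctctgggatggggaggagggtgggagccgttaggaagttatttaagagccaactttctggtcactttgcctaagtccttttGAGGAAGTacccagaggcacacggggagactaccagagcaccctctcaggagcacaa
In F5 the capitals are an AP-1 match that begins 143 bases before the gene start. In F13a1 they are a PU.1 match that begins 7 bases before the start.

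F2r encodes PAR1, the principal thrombin receptor of most cells. Its signal was 185, 150 and 162 on PT replicates 1, 2 and 4 and 256, 223 and 230.0 on OPN replicates 2, 3 and 4. The groups did not overlap, with 166 ± 18.3 on PT and 236 ± 17.4 on OPN (SD, n = 3). The gene was 1.39-fold higher on OPN (log2 difference 0.48, SE 0.09, adjusted p = 0.0191). F2rl2 encodes PAR3, which in mouse platelets serves as a cofactor for thrombin's action on PAR4. It read 159.9, 117 and 160.2 on PT replicates 1, 2 and 4 and 238, 221 and 228 on OPN replicates 2, 3 and 4. The lowest PT array was replicate 2, and all PT arrays lay below all OPN arrays. F2rl2 was 1.53-fold higher on OPN (log2 difference 0.61, SE 0.11, adjusted p = 0.0148). Both calls were close to the threshold: F2r lost its call, with adjusted p between 0.0568 and 0.0834, when replicate 2 or 4 of either coating was left out, and F2rl2 lost it without any 1 of the OPN replicates 2, 3 and 4 (adjusted p between 0.0520 and 0.0617). Their differences stayed between 0.41 and 0.49, and between 0.59 and 0.64, in those fits.

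The promoters of F2r (chr2:28620530-28620829, minus strand) and F2rl2 (chr2:28706516-28706815, plus strand) are shown in the same way.
F2r: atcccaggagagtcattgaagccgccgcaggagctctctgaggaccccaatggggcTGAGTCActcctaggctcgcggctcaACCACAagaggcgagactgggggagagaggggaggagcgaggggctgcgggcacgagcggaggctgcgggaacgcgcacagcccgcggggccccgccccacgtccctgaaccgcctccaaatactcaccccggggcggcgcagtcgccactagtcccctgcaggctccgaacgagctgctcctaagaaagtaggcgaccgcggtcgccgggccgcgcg
F2rl2: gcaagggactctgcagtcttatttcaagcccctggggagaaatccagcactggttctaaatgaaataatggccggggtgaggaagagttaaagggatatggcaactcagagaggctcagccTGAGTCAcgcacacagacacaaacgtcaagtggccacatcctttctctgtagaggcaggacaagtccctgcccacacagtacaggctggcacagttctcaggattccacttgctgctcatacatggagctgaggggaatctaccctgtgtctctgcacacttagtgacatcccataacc
Each holds TGAGTCA, an AP-1 match, beginning 194 bases before the start of F2r and 129 before that of F2rl2, and F2r has a RUNX match on the other strand that begins 168 bases before its start. TGANTCA occurred in 7.33% of the 27457 promoters of the table, TGTGGT in 16.9%, AGATAAG in 2.77% and GAGGAAGT in 2.44%. Of the 7 genes of the group with a promoter there, 3 held the AP-1 letters, and these were 3 of the 4 that rose. The motifs were chosen after these sequences had been read, so this count is no test of enrichment. F10 held a RUNX and a GATA match, and F2 and F7 held none of the 4 motifs. The matches did not overlap each other. They describe letters in this window and say nothing of which factor binds.

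F2rl1 encodes PAR2, which trypsin-like proteases and factor Xa cut but thrombin hardly does. F2rl1 had 236, 243 and 259 units on PT replicates 1, 2 and 4 and 213, 210.2 and 197 on OPN replicates 2, 3 and 4. All OPN arrays lay below all PT arrays, in the opposite direction to F2r and F2rl2. The log2 difference was -0.23 (95% confidence interval -0.39 to -0.07), without a call over all rows (adjusted p = 0.114). It was called lower with equal array medians (-0.30, adjusted p = 0.0411) and also, at -0.30, after quantile normalisation (adjusted p = 0.0316). In the gene table F2rl1, F2r and F2rl2 lie in this order on chromosome 2, with 1 other protein-coding gene between each and the next, so neighbouring receptor genes differed in sign. Whether the differences of the 3 receptors differ from each other was not tested. Iqgap2 overlaps F2rl2 in that table, as Tpi1l2 does F13a1, and neither Iqgap2 nor Tpi1l2 was analysed here.

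Thbd encodes thrombomodulin, the endothelial membrane protein that turns thrombin from clotting to the activation of protein C. Its signal was 125, 144 and 133 on PT replicates 1, 2 and 4 and 206, 193 and 198 on OPN replicates 2, 3 and 4. The 3 arrays of each coating lay close together and far from the others. Thbd was 1.43-fold higher on OPN, at 199 ± 6.20 against 134 ± 9.59 units (SD, n = 3), with a log2 difference of 0.52 (SE 0.07, adjusted p = 0.00364). On OPN it stood at or above 41.7% to 44.9% of rows.

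**Figure D2:**
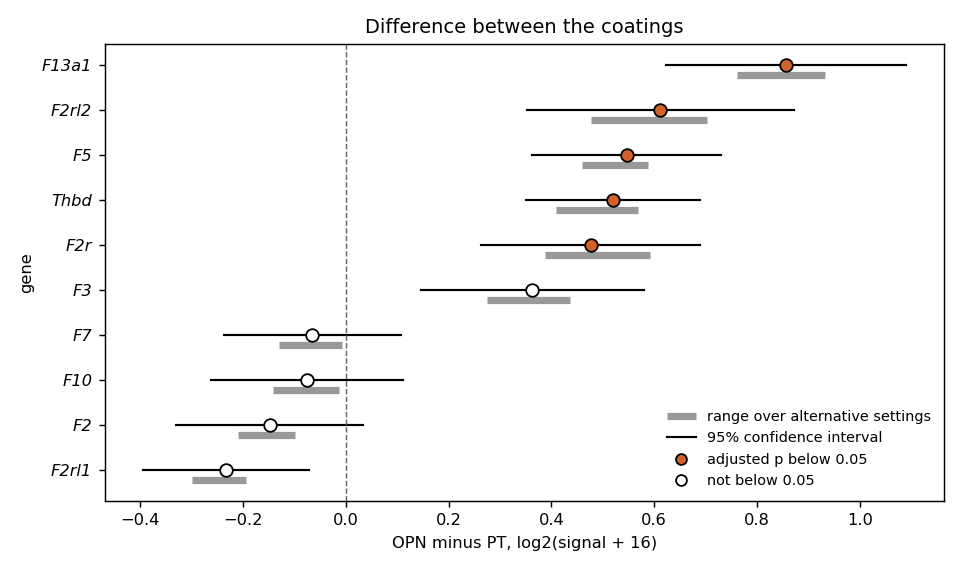
Log2 difference, OPN minus PT, of each gene on the scale of log2(signal + 16), with its 95% confidence interval (black line) and the range over the alternative settings (grey bar). Filled points passed an adjusted p of 0.05. The 5 filled points lie between 0.48 and 0.86, F3 at 0.36 is open, and F7, F10, F2 and F2rl1 lie below 0.

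Genes with the most similar pattern were sought among named genes above the array median on all 6 arrays, by the root mean square difference of log2 values centred per gene. Nearest to F13a1 were Clmp (0.05), an adhesion molecule gene, Pals2 (0.05) and the endoplasmic reticulum disulfide isomerase gene Pdia4 (0.05). Nearest to F5 were the Golgi protein gene Gorasp2 (0.03), the disulfide isomerase gene Pdia6 (0.04) and the RUNX partner gene Cbfb (0.04). Thbd was nearest to the cortical actin gene Cttn (0.03), the caveola gene Cavin3 (0.04) and Pstpip1 (0.04). F2r was nearest to the small GTPase gene Rhoq (0.05), the desaturase gene Scd2 (0.05) and the hexokinase gene Hk2 (0.05), and F2rl2 to Plagl1 (0.07), the neuropeptide gene Npy (0.07) and the zinc transporter gene Slc39a13 (0.08). All 15 neighbours were called higher on OPN, at an adjusted p of at most 0.0204. Leaving out OPN replicate 2 or 3 ended the calls of Rhoq and Slc39a13, and leaving out PT replicate 1 or any 1 of the OPN arrays that of Npy (adjusted p between 0.0516 and 0.0782). A likeness over 6 arrays of 2 groups mostly reflects a similar difference between the coatings.

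Of 14 other measured clotting, fibrinogen, contact-pathway and vitamin K genes, 3 rose and 0 fell, and the median log2 difference was 0.09. This list and those of inhibitors, receptor signalling and thrombin-induced genes were chosen with earlier results of these data known. Their counts are descriptions, beside 7.62% of the named genes called higher and 1.12% lower. Vkorc1, the reductase that recycles vitamin K, stood at 293 ± 14.7 units on PT and 1195 ± 72.4 on OPN (SD, n = 3), which is 3.91-fold higher (adjusted p = 1.71e-06). Its paralogue Vkorc1l1 had a log2 difference of 0.01 without a call (adjusted p = 0.966), at 514 ± 30.4 units on PT and 518 ± 11.9 on OPN. Ggcx, the carboxylase that uses vitamin K to modify prothrombin, factors VII and X and the bone protein osteocalcin, was 2.35-fold higher (adjusted p = 5.77e-05). Lman1, the cargo receptor that carries factors V and VIII out of the endoplasmic reticulum, was 2.63-fold higher (adjusted p = 1.52e-04), and its partner Mcfd2 had a log2 difference of 0.36 without a call (adjusted p = 0.115). The factor genes F8, F11, F12 and F13b and the fibrinogen genes Fga, Fgb and Fgg lay between -0.10 and 0.10 and were not called. At an unadjusted p below 0.05 limma had 0 genes lower in this list and in the list of inhibitors, 2 in that of receptor signalling (Arhgef12 and Prkcd) and 1 among the thrombin-induced genes (Ccl2). Among proteins that Ggcx modifies, a set put together after the values were seen, the osteocalcin gene Bglap (2.46), the protein S gene Pros1 (1.35) and the growth factor gene Gas6 (0.34) rose. F2 (-0.15), F7 (-0.06), F10 (-0.07), the protein C gene Proc (-0.04) and the protein Z gene Proz (-0.01) were not called.

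Of 13 measured inhibitors and anticoagulant partners, 6 rose and 0 fell, with a median of 0.26. Serpine2, the protease nexin that inhibits thrombin, stood at 113 ± 8.57 units on PT and 1503 ± 140 on OPN (SD, n = 3), a log2 difference of 3.55. Tfpi2, a Kunitz-type protease inhibitor, followed with 3.46. Pros1, the cofactor of activated protein C, was 1.35 higher, the broad protease inhibitor gene A2m 0.76 and Tfpi, the inhibitor of the tissue factor complex, 0.49, all with an adjusted p of at most 0.0114. The calls of Tfpi and Gas6 were the weak ones. Tfpi lost it without OPN replicate 2 or 3 (adjusted p = 0.0522 and 0.0536) and Gas6, at adjusted p between 0.0513 and 0.0982, when replicate 1 or 2 of PT or replicate 2 or 3 of OPN was left out. The protein C receptor gene Procr (0.26) and the antithrombin gene Serpinc1 (-0.17) did not pass.

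Of 30 measured genes of receptor signalling, 9 rose and 0 fell, with a median of 0.15. The G protein gene Gnai1 rose most, from 76.7 ± 6.42 units on PT to 328 ± 30.5 on OPN (SD, n = 3), a 3.71-fold difference (adjusted p = 4.78e-06). Gp1ba, a platelet receptor chain that binds thrombin and von Willebrand factor, rose by 0.71 on the log2 scale and also stands among the platelet markers. The calcium channel genes Itpr1 (0.38) and Itpr3 (0.33), the phospholipase gene Plcb4 (0.32) and the kinase gene Prkca (0.40) passed narrowly. Each of these 4 lost its call without PT replicate 2 or 4 or any 1 of the OPN replicates (adjusted p between 0.0594 and 0.126), and in those fits 2 to 4 genes of the list were called. F2rl3, the gene of the thrombin receptor PAR4, had a log2 difference of 0.23 without a call. With equal array medians 6 genes were called higher and 1 lower, and with quantile normalisation 9 and 2.

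Of 15 measured genes that thrombin is known to induce in cells of vascular or mesenchymal origin, 10 rose and 0 fell, with a median of 0.58. This list too was chosen with earlier results of these data known. The matricellular gene Ccn1 stood at 107 ± 8.71 units on PT and 1261 ± 64.8 on OPN (SD, n = 3) and was 10.4-fold higher. The adhesive matrix protein gene Thbs1 was 2.50-fold higher, the immediate early genes Fos and Egr1 3.34-fold and 1.73-fold, the chemokine gene Cxcl1 2.51-fold and the prostaglandin synthase gene Ptgs2 1.79-fold, all with an adjusted p of at most 8.77e-04. The chemokine gene Ccl2 (-0.23) lay below 0 and Il6 (0.36) above it, neither with a call. Many other stimuli induce these genes, and the part of thrombin in their levels was not tested.

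**Figure D3:**
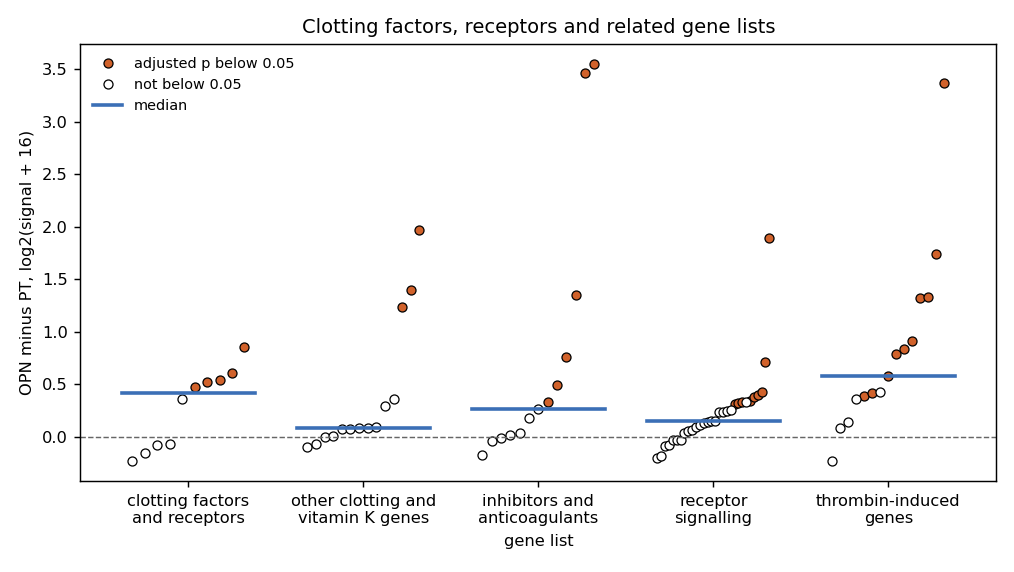
Log2 differences, OPN minus PT, of the 10 clotting factor and receptor genes and of the genes of 4 related lists, 1 point a gene, filled where the adjusted p was below 0.05, with a blue line at the median of each list. The medians are 0.42, 0.09, 0.26, 0.15 and 0.58 from left to right, and no filled point lies below 0.

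Markers of several cell types moved on the same arrays. All 11 measured osteoblast markers rose, with Phex, Spp1 and Col1a2 first by smallest p and the largest difference in Ibsp (3.87). The list's summed signal was 10376 to 11310.1 on PT and 52887 to 59496 on OPN. Of the stromal markers 9 of 10 rose, with Lum, Dcn and Cxcl12 first by smallest p and sums of 7844 to 8681 and 12609 to 13579. Acta2, the stromal marker without a call, had a mean of 6482 on PT and 6753 on OPN (log2 difference 0.06). Acta2 thus made up much of both sums, and the median log2 difference of the stromal list was 1.42. Of the osteoclast markers 7 of 8 rose, with Ctsk, Acp5 and Mmp9 first by smallest p and sums of 3332 to 3570.5 and 21238 to 23942. Platelet markers rose in 6 of 7 cases (Selp, Pf4 and Gp1ba first), with sums of 4034 to 4228 and 5325 to 5629. The seventh, the transcription factor gene Gfi1b, which erythroid cells also express, lay at -0.28 (adjusted p = 0.0531) and was called lower with equal array medians and quantile normalisation (adjusted p = 0.0360 and 0.0274) and without PT replicate 1 (adjusted p = 0.0486). Endothelial markers rose in 8 of 9 cases (Kdr, Tek and Ramp2 first), with sums of 1722 to 1869 and 2818 to 2964. In the other direction 7 of 12 macrophage markers fell, with Mrc1, Cd163 and C1qa first. The list's sums were 13415 to 13994 on PT and 9487 to 10192 on OPN. In that list 9 markers lay below 0 and 3 above it, Cd68 (0.18), Csf1r (0.12) and Vsig4 (0.14), these 3 without a call. Of 6 erythroid markers 2, Epb42 and Rhag, fell. All 6 lay below 0, and in limma's test 5 were lower at an unadjusted p below 0.05. Both erythroid calls were lost without PT replicate 2 or 4 or any 1 of the OPN replicates (adjusted p between 0.0636 and 0.189), while 9 to 10 osteoblast and 8 to 9 stromal markers were called higher, and 7 macrophage markers lower, whichever array was left out. Limma called 0 of 8 mast cell, 10 hepatocyte and 8 granulocyte markers (1, 0 and 3 higher at an unadjusted p below 0.05), and the hepatocyte list had a median of 0.04. Granulocyte sums were 8774, 10309 and 14059 on PT replicates 1, 2 and 4 and 12812 to 14395 on OPN, and without PT replicate 4 the granulocyte markers Camp, Ngp, S100a8 and S100a9 were called higher on OPN (adjusted p between 0.00627 and 0.0232). No marker was at 0 on any array. The part of these cell types in the levels of F5, F13a1, F2r, F2rl2 and Thbd was not tested.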

How the data were processed

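The members and gene lists were chosen with earlier results of these data known. Per the submitters' processing notes, the deposited values were made with Affymetrix Expression Console and PLIER, which gives 1 linear intensity per probe set and array. Versions, background correction, scaling and build: not given in the sources used here.

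Rows were named through the platform annotation, in which 15310 of 29215 rows have 1 symbol, 323 several and 13582 none. The row with the highest mean stood for a gene. Values were analysed as log2(intensity + 16) with limma 3.58.1 (lmFit, eBayes; R 4.3.3), with 1 term for the coating, all 6 arrays and all rows. P-values were adjusted over all rows by the Benjamini-Hochberg method, and a call means an adjusted p below 0.05. Errors are SD over 3 arrays or limma's SE, whose precision 3 arrays per group limit. Named genes are all members, up to 6 called genes of each pathway list, 3 similar genes for each called member and up to 3 per cell type list, by smallest p; others were singled out after their values were seen. On simulated arrays of 29215 rows, 67, 67 and 66 rows were moved by 0.5, 1 and 2 (log2). The test recovered 73.1%, 98.5% and 100% of them, with 11 false calls. The simulated noise was normal with variances from limma's fit, and far fewer rows moved than were called in the data. These rates therefore need not hold for the data. No label says that a shared replicate number marks a shared preparation, so the main fit used no block. Arrays that share number 2 or 4 deviated from their group means with correlations of -0.08 and 0.07. Arrays of unlike number gave -0.11 to 0.18, so these correlations do not decide whether the numbers mark pairs. Alternatives were other offsets, a filter on dim rows, 2 scalings, the mean of a gene's rows, a trended variance, a replicate block and leaving out each array.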

Additional observations from a re-analysis of the deposited data

How the results depend on the processing

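None of the 10 differences changed sign in any of the 14 alternative settings, and F13a1 kept its call in all of them. The 5 genes called higher kept their calls with every offset, filter, scaling and variance model tried. An offset of 64 and the filter on dim rows each brought the count to 6, with F3 added. When 1 array was left out, 3 to 5 of the 10 genes were called higher, with 3 without OPN replicate 2 or OPN replicate 4. 0 were called lower when 1 array was left out, and 1, F2rl1, with equal array medians or quantile normalisation. F3 was called higher with an offset of 64 (adjusted p = 0.0471) and without the dimmest 25% of rows (adjusted p = 0.0228), where F2 was not tested. With the replicate number as a block, which the labels do not support as a pairing, 1 of the 10 was called, F13a1 (adjusted p = 0.0423). F5, F2r, F2rl2 and Thbd then had log2 differences of 0.46, 0.59, 0.70 and 0.49 and adjusted p = 0.112, 0.0613, 0.0618 and 0.0867, and 618 rows were called higher and 48 lower. In that fit PT replicate 1 and OPN replicate 3, whose numbers occur once, add nothing to the difference. It rests on replicates 2 and 4 of each coating, with fewer residual degrees of freedom. The cause of the lost calls was not tested. The receptor signalling list had 2 called higher with the block, and 1 and 2 called lower with equal medians and quantile normalisation. Without 1 array it had 2 to 6 called higher, the inhibitor list 4 to 6, the clotting and vitamin K list 3 to 4 and the thrombin-induced list 8 to 10, and 0 were called lower in each. Rows called lower, 225 in the main setting, numbered 382 with an offset of 64, 423 without the dimmest 25% of rows, 551 with equal medians, 745 with quantile normalisation and 508 with a trended variance, and 95 to 181 without 1 array, when 928 to 1357 were called higher. Dim signal limits the genes below the array median, since an unknown share of it is background.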

Other observations

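Up to 3 protein-coding genes on either side of each member in the GRCr8 gene table were compared. Most of the measured neighbours were not called, and some rose on OPN, beside called and uncalled members alike. Over all named genes 7.62% were called higher and 1.12% lower. Near F2r, F2rl1 and F2rl2 the measured genes outside the group, Sv2c (0.01), Aggf1 (-0.003) and Crhbp (-0.02), were not called. F5 lies next to the selectin genes on chromosome 13, and both measured ones were higher on OPN: Selp, the adhesion receptor of platelets and endothelium, with 386 against 167 units (log2 difference 1.14, adjusted p = 2.31e-05), and Sele, the endothelial selectin, with 198 against 111 (log2 difference 0.76, adjusted p = 0.00224). Slc19a2, on the other side of F5, had a log2 difference of 0.09 without a call (adjusted p = 0.647). Next to Thbd on chromosome 3, Cd93, a receptor of endothelial and myeloid cells, was 0.41 higher (adjusted p = 0.00677), while Sstr4 on its other side was not called (0.08, adjusted p = 0.805). Beside F13a1 on chromosome 17, Ly86, a gene of B cells and macrophages, read 437 units on PT and 349 on OPN (log2 difference -0.31, adjusted p = 0.0402), the opposite direction to F13a1. The call of Ly86 was lost without PT replicate 2 or 4 or any 1 of the OPN replicates (adjusted p between 0.108 and 0.147). Near members that were not called, Cnn3 near F3 (0.75, adjusted p = 0.00252), Lrp4 near F2 (0.55, adjusted p = 0.00406) and Atp11a near F7 and F10 (0.44, adjusted p = 0.0172) rose as well. Atp11a missed the threshold when PT replicate 2, OPN replicate 2 or OPN replicate 3 was left out, at adjusted p values of 0.0567, 0.0813 and 0.0720. These neighbours were looked up after the members' values were seen, and no test of proximity was made.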
